A study of Homo sapiens with 6 samples.

Results

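The genes described here are 10 genes of the YAP, TAZ and TEAD system, taken by name from a table of 58735 genes. They are YAP1, WWTR1, TEAD1, LATS1, LATS2, CYR61, CTGF, ANKRD1, AMOTL2 and AJUBA, and each name was found once. The values come from RNA sequencing of 6 libraries labelled as Hep3B, a cell line from a human liver cancer. In 3 libraries the cells carried a short hairpin RNA (shRNA) against HYOU1, a chaperone of the endoplasmic reticulum, and in the other 3 they carried a control shRNA. The labels give no clone, vector or time after the shRNA, and nothing in them says that replicates came from separate cultures. All p-values below thus reflect differences among 6 libraries that may be technical.

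YAP (encoded by YAP1) and TAZ (encoded by WWTR1) are transcriptional coactivators that do not bind DNA by themselves. In the nucleus they bind TEAD transcription factors and switch on genes such as CTGF, CYR61 and ANKRD1. In the Hippo pathway the kinases LATS1 and LATS2 phosphorylate both coactivators, which holds them in the cytoplasm and promotes their degradation. Several targets, LATS2 and AMOTL2 among them, restrain YAP and TAZ in turn. Most of this control acts on the proteins, which RNA levels do not show. In liver, the pathway is known for its control of organ size and for its part in tumour growth.

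Of the 10 genes, 9 reached a mean of 1 FPKM (fragments per kilobase of gene, scaled to library depth) over the 6 libraries and were tested. AMOTL2 and CYR61 rose with the HYOU1 shRNA, 0 genes fell, and 7 were not past the threshold (limma, Benjamini-Hochberg adjusted p under 0.05 over all 12448 tested genes). At an unadjusted p under 0.05 there were 2 genes higher and 2 lower, the lower ones being TEAD1 and CTGF. The share of all tested genes at that unadjusted p was not counted, so these counts are not a result about the 10 genes. A fit of recovered fragments (voom in limma) called 2 genes higher and 0 lower as well, and 1770 of all 12448 tested genes. Among all tested genes limma called 12.3%, 6.60% as higher and 5.66% as lower. The groups did not overlap in 4 of the 9 genes, AMOTL2, CYR61, TEAD1 and CTGF. Over all tested genes this share was 44.4%, so 4 of 9 is near the background. The median log2 fold change of the 9 genes was -0.12, against 0.04 for all tested genes.

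HYOU1 itself was at 2.35, 2.32 and 2.37 FPKM in HYOU1 shRNA libraries, against 37.6, 58.2 and 59.5 FPKM in control libraries, and fell by 4.38 on the log2 scale (limma, adjusted p = 0.00119). Libraries held 16893091 to 18233240 fragments, of which 3.39% to 3.84% were mitochondrial with the HYOU1 shRNA and 4.96% to 7.59% in controls. In the libraries labelled Hep3B, 4 of 19 hepatocyte markers (RBP4, VTN, C3 and HNF4A) reached a mean of 1 FPKM, as did 8 of 10 biliary markers. So did 5 of 10 fibroblast markers (COL1A1, PDGFRB, ACTA2, DCN and VIM). Another 4 hepatocyte markers, ALB among them, were listed at 0 in all 6 libraries. Of 8 endothelial and 8 immune markers 0 reached a mean of 1 FPKM. Whether the cells match the Hep3B label was not tested. The summed level of the 19 hepatocyte markers was 58.1 to 65.8 FPKM with the HYOU1 shRNA and 66.6 to 87.3 FPKM in controls. The summed level of 10 fibroblast markers was 131 to 137 FPKM with the HYOU1 shRNA and 91.0 to 108 FPKM in controls, and the part of these markers and of mitochondrial RNA in the results was not tested. In bulk RNA, fewer cells of a type and less RNA per cell cannot be told apart. Control replicate 1 stood apart. Relative to the mean of the other two controls, its median log2 difference was 0.76 over the 10% of genes poorest in GC and -1.0 over the 10% richest in GC. Results are therefore also given without that library and after a correction that removes the trend with GC content from every library. Those 2 fits called 44.3% and 40.6% of all tested genes.

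The 10 genes spanned a wide range of levels. In HYOU1 shRNA libraries YAP1 and CYR61 had the highest mean levels, at 26.2 ± 1.40 and 26.0 ± 0.116 FPKM (SD, n = 3 each), and their values overlapped. AMOTL2 followed at 23.1 ± 1.5 FPKM, then TEAD1 at 16.2 ± 0.538, AJUBA at 12.8 ± 0.370, WWTR1 at 9.49 ± 0.628, CTGF at 7.87 ± 1.12, LATS2 at 6.32 ± 0.297 and LATS1 at 2.2 ± 0.184 FPKM (SD, n = 3 each). In that group WWTR1 and CTGF overlapped in their values, and so did YAP1 and CYR61. In control libraries the order of the means was YAP1, TEAD1, CYR61, AJUBA, AMOTL2, WWTR1, CTGF, LATS2 and LATS1. There YAP1 overlapped TEAD1, and AMOTL2 overlapped AJUBA and WWTR1, and CTGF overlapped WWTR1, so those neighbours do not differ beyond their spread. The order rested partly on control replicate 1: in it TEAD1 was above YAP1, and in both other controls AMOTL2 was above AJUBA and CTGF above WWTR1. ANKRD1 was the lowest in both groups.

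**Figure D1:**
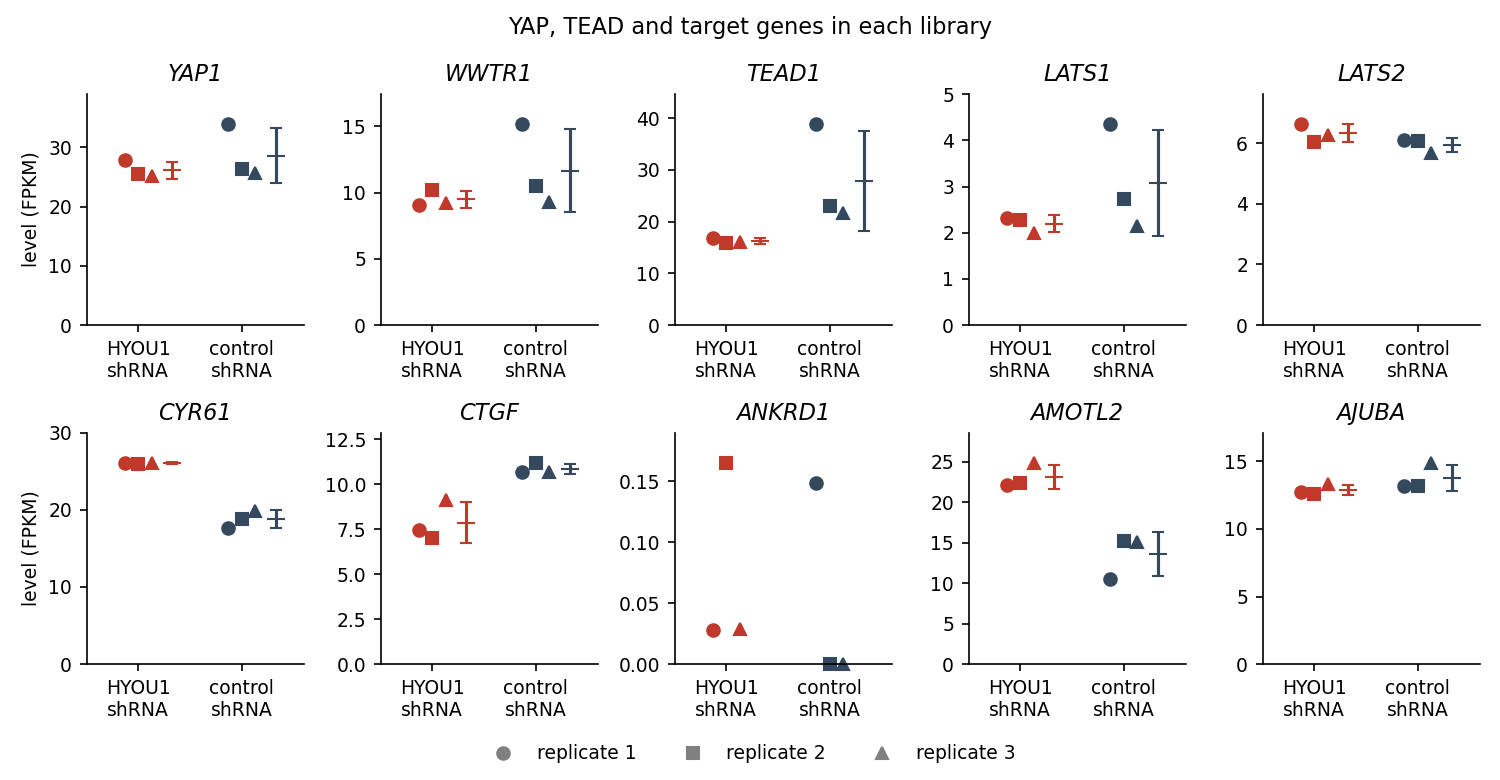
Level in FPKM (vertical axes, each from 0) of the 10 genes in each library, with HYOU1 shRNA libraries on the left of each panel and control shRNA libraries on the right. Symbols mark the replicates, and bars beside them show the mean and SD of 3 libraries except for ANKRD1. AMOTL2 and CYR61 sit higher with the HYOU1 shRNA, TEAD1 and CTGF lower, and control replicate 1 is the highest library for YAP1, WWTR1, TEAD1 and LATS1.

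The coactivators showed no difference past the threshold. YAP1 (ENSG00000137693, chr11:102110461-102233423 on GRCh38, plus strand) had levels of 27.8, 25.5 and 25.2 FPKM in libraries 1, 2 and 3 of the HYOU1 shRNA, against 34.0, 26.3 and 25.6 FPKM in libraries 1, 2 and 3 of the control shRNA. The values of both groups overlapped, and only control replicate 1 was above 30 FPKM. The log2 fold change was -0.12 with a 95% interval from -0.47 to 0.23 (limma, adjusted p = 0.596). It was -0.01 after the GC correction, with an interval from -0.13 to 0.12, and turned to 0.01 without control replicate 1, with an interval from -0.14 to 0.16.

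WWTR1 (ENSG00000018408, chr3:149517235-149736714, minus strand), which encodes TAZ, was at 9.04, 10.2 and 9.22 FPKM in HYOU1 shRNA libraries, against 15.2, 10.5 and 9.31 FPKM in control libraries. Here too control replicate 1 was the high library and the other 5 lay close together. The log2 fold change was -0.27, with an interval from -0.74 to 0.21 (limma, adjusted p = 0.391), and with control replicate 1 left out it was -0.06 (adjusted p = 0.602) and with GC corrected -0.12 (adjusted p = 0.257). YAP1 stood above WWTR1 in every library, by 3.07, 2.50 and 2.73 times in HYOU1 shRNA libraries and by 2.23, 2.50 and 2.75 times in control libraries. The sum of both coactivators over the sum of the 4 TEAD genes was 0.640, 0.654 and 0.582 with the HYOU1 shRNA and 0.732, 0.563 and 0.540 in controls, and the groups overlapped.

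TEAD1, a DNA-binding partner of YAP and TAZ, was lower with the HYOU1 shRNA in every library, but its call depended on control replicate 1. TEAD1 (ENSG00000187079, chr11:12674591-12944483, plus strand) was at 16.9, 15.9 and 16 FPKM in HYOU1 shRNA libraries, against 38.9, 23.0 and 21.6 FPKM in control libraries. The groups did not overlap, and the spread of the controls came mainly from replicate 1. On the log2 scale the difference was -0.72 (standard error 0.23) with a 95% interval from -1.28 to -0.17, which did not pass (limma, adjusted p = 0.0892). With control replicate 1 left out TEAD1 fell by 0.46 (adjusted p = 0.00101), and after the GC correction it fell by 0.58 (adjusted p = 0.00276).

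The 3 paralogs of TEAD1 bind the same DNA letters and the same coactivators. TEAD4 was at 19.8, 20.0 and 21.7 FPKM in HYOU1 shRNA libraries, against 12.7, 18.6 and 18.4 FPKM in control libraries, a log2 fold change of 0.33 that did not pass (limma, adjusted p = 0.248). TEAD3 had a log2 fold change of 0.17 and TEAD2 one of -0.29, and neither passed (limma, adjusted p = 0.572 and 0.397). These fold changes are from the fit with control replicate 1. In the fits without it and with GC corrected, the 5 tested TEAD paralogs and cofactors had 1 higher and 1 lower call per fit. Those fits called 44.3% and 40.6% of all tested genes. The summed level of TEAD1 to TEAD4 was 57.5, 54.6 and 59.2 FPKM in HYOU1 shRNA libraries, against 67.3, 65.3 and 64.8 FPKM in control libraries. TEAD1 made up 29.3%, 29.1% and 27.0% of that sum in HYOU1 shRNA libraries, against 57.8%, 35.2% and 33.3% in control libraries. TEAD4 made up 34.5%, 36.6% and 36.7% with the HYOU1 shRNA, against 18.9%, 28.4% and 28.4% in controls. Of the 4 paralogs, TEAD4 thus had the highest level in all 3 HYOU1 shRNA libraries and TEAD1 in all 3 control libraries. For the TEAD1 share the exact two-sided permutation p was 0.1, the smallest that 3 against 3 can give, and 0.1 when adjusted over the 3 within-library measures tested. These measures were chosen after their values were seen, which the adjustment does not cover. The p for the TEAD1 share thus adds nothing to the values above.

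**Figure D2:**
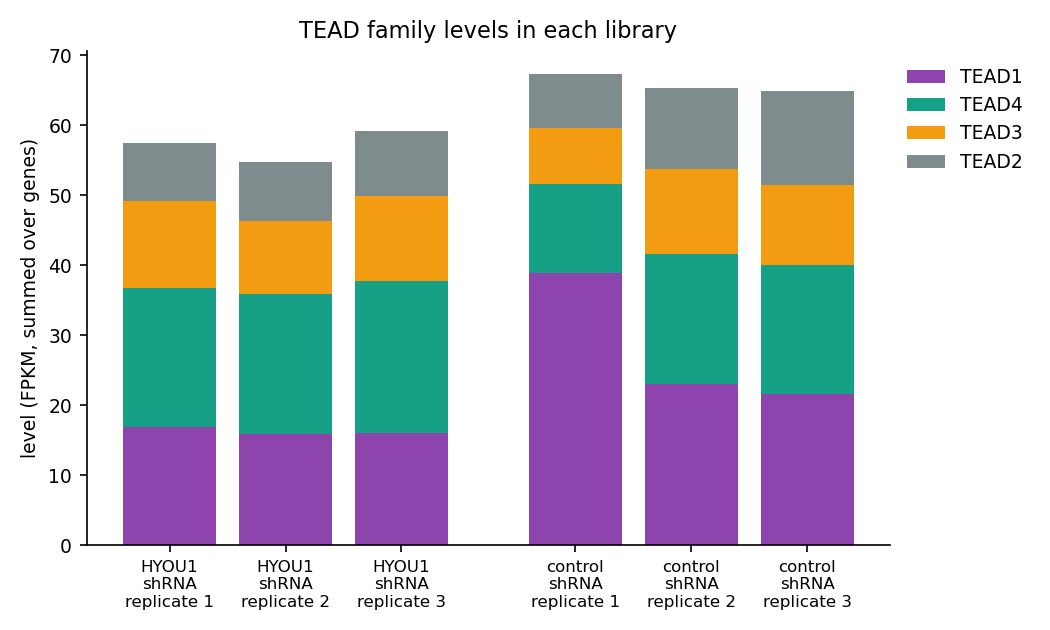
Stacked levels in FPKM (vertical axis, from 0) of TEAD1, TEAD4, TEAD3 and TEAD2 in each library, with HYOU1 shRNA libraries on the left and control shRNA libraries on the right. The sum is 54.6 to 59.2 FPKM with the HYOU1 shRNA and 64.8 to 67.3 FPKM in controls, and the TEAD1 part is the smaller in HYOU1 shRNA libraries.

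The LATS kinases did not pass the threshold. LATS1 (ENSG00000131023, chr6:149658153-149718256, minus strand) was at 2.33, 2.28 and 1.99 FPKM in HYOU1 shRNA libraries, against 4.36, 2.72 and 2.15 FPKM in control libraries. The groups overlapped, and the log2 fold change was -0.41 with an interval from -1.04 to 0.23 (limma, adjusted p = 0.334). As a fold, that interval runs from 0.485 to 1.17 times the control level. With control replicate 1 left out the log2 fold change was -0.13 (adjusted p = 0.504), and with GC corrected -0.24 (adjusted p = 0.163).

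LATS2 (ENSG00000150457, chr13:20973032-21061547, minus strand), a kinase gene that YAP and TAZ also switch on, was at 6.64, 6.05 and 6.28 FPKM in HYOU1 shRNA libraries, against 6.09, 6.06 and 5.66 FPKM in control libraries. The log2 fold change was 0.09, with an interval from -0.19 to 0.37 (limma, adjusted p = 0.626). LATS2 was above LATS1 in all 6 libraries, by 2.85, 2.65 and 3.16 times with the HYOU1 shRNA and by 1.40, 2.23 and 2.64 times in controls.

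Of the junction scaffolds AMOTL2 rose and AJUBA did not pass the threshold, and the difference between their changes was not tested. AMOTL2 (ENSG00000114019, chr3:134355874-134375479, minus strand), an angiomotin that binds YAP at cell junctions and is also its target gene, was at 22.2, 22.4 and 24.9 FPKM in HYOU1 shRNA libraries, against 10.5, 15.2 and 15.1 FPKM in control libraries. Every HYOU1 shRNA library was above every control, and control replicate 1 was the lowest. AMOTL2 rose by 0.78 on the log2 scale with a standard error of 0.18, or 1.72-fold with a 95% interval from 1.28 to 2.30 (limma, adjusted p = 0.0368). Its rise was 0.60 without control replicate 1 (adjusted p = 3.90e-04) and 0.59 after the GC correction (adjusted p = 4.35e-04).

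AJUBA (ENSG00000129474, chr14:22971174-22982642, minus strand), a LIM protein that binds LATS kinases and limits their activity, was at 12.7, 12.6 and 13.3 FPKM in HYOU1 shRNA libraries, against 13.2, 13.2 and 14.9 FPKM in control libraries. The groups overlapped. The log2 fold change was -0.10, with an interval from -0.37 to 0.17 (limma, adjusted p = 0.580).

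CYR61 and CTGF, which encode secreted matricellular proteins of the CCN family and are the usual readouts of YAP and TAZ activity, had fold changes of opposite sign, of which that of CYR61 passed the threshold. CYR61 (ENSG00000142871, chr1:85580761-85583962, plus strand; now named CCN1) was at 26.1, 25.9 and 26.1 FPKM in HYOU1 shRNA libraries, against 17.6, 18.8 and 19.9 FPKM in control libraries. All HYOU1 shRNA libraries were above all controls. CYR61 rose by 0.47 with a standard error of 0.11, or 1.39-fold with an interval from 1.16 to 1.66 (limma, adjusted p = 0.0369). The rise was 0.43 without control replicate 1 (adjusted p = 9.00e-04) and 0.46 after the GC correction (adjusted p = 8.54e-04).

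CTGF (ENSG00000118523, chr6:131948176-131951373, minus strand; now named CCN2) was at 7.45, 7.03 and 9.14 FPKM in HYOU1 shRNA libraries, against 10.7, 11.2 and 10.7 FPKM in control libraries. All HYOU1 shRNA libraries were below all controls, with replicate 3 the nearest to them. On the log2 scale the difference was -0.47 (standard error 0.14) with an interval from -0.80 to -0.14, which did not pass (limma, adjusted p = 0.0719). With control replicate 1 left out CTGF fell by 0.48 (adjusted p = 0.0102), and after the GC correction it fell by 0.51 (adjusted p = 0.00930).

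Within libraries the ratio of CYR61 to CTGF was 3.5, 3.68 and 2.86 in HYOU1 shRNA libraries, against 1.64, 1.68 and 1.86 in control libraries. It was thus 1.93 times as high with the HYOU1 shRNA. The ratio of AMOTL2 to CTGF was 2.98, 3.18 and 2.72 in HYOU1 shRNA libraries, against 0.978, 1.36 and 1.42 in control libraries, or 2.39 times as high. The summed level of CYR61 and CTGF was 33.5, 32.9 and 35.3 FPKM with the HYOU1 shRNA and 28.3, 29.9 and 30.6 FPKM in controls. Neither ratio overlapped between the groups. This follows from the single genes, as CYR61 and AMOTL2 were above all controls and CTGF below all controls. For each ratio the exact two-sided permutation p was 0.1, the smallest possible here, and 0.1 when adjusted over the 3 measures. Both pairs were chosen after their values were seen, so this p adds nothing to the results of the single genes. A ratio within a library does not depend on how libraries were scaled, but it keeps a library's trend with GC content. In control replicate 1 AMOTL2 differed from the mean of control replicates 2 and 3 by -0.53 on the log2 scale, and CTGF by -0.03. The ratio of AMOTL2 to CTGF was lowest in that library, which the value of 2.39 includes.

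**Figure D3:**
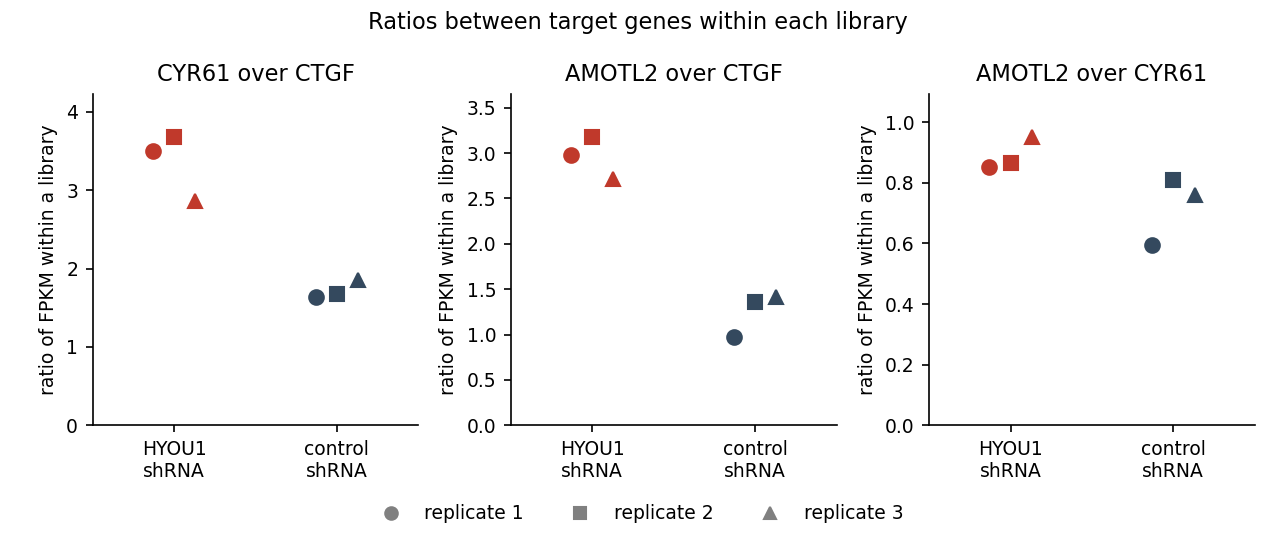
Ratio of FPKM between pairs of target genes within each library (vertical axes, from 0), HYOU1 shRNA on the left and control shRNA on the right, with symbols for the replicates. CYR61 over CTGF is 2.86 to 3.68 with the HYOU1 shRNA and 1.64 to 1.86 in controls, and AMOTL2 over CTGF is 2.72 to 3.18 with the HYOU1 shRNA and 0.978 to 1.42 in controls.

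ANKRD1 (ENSG00000148677, chr10:90912096-90921276, minus strand), an ankyrin repeat protein and YAP target, was close to the limit of detection and was not tested. It had 1, 6 and 1 fragments in HYOU1 shRNA libraries, against 5, 0 and 0 fragments in control libraries. A count of 3 fragments was worth 0.0809 to 0.0888 FPKM for this gene, and 1 library of each group was above that. No difference was detectable at this depth, and such floors cover counting error only.

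Promoter windows show where TEAD letters lie near the start sites of these targets. The windows ran from 250 bases before to 50 bases after a RefSeq start site (GRCh38.p14), and 8 of the 10 genes had at least 1 window, TEAD1 and CYR61 being the other two. The 6 letters searched were CATTCC on either strand, which reads GGAATG on the other and is the core that TEAD proteins bind. Of 35116 windows in the table, 14.0% held at least 1 copy, 1.37% at least 2 and 0.128% at least 3. CTGF held 3 copies, ANKRD1 held 2, and YAP1, LATS2, AMOTL2 and AJUBA held 1 each, in AMOTL2 and AJUBA at 1 of 2 start sites. WWTR1 and LATS1 held 0. The 250 bases before the start site of CTGF (chr6:131951373-131951622, minus strand), of ANKRD1 (chr10:90921088-90921337, minus strand) and of AMOTL2 at its start site with a copy (chr3:134374448-134374697, minus strand) are given 5′ to 3′ in the direction of the gene. Capitals mark the TEAD letters. These 3 are shown because they hold 2 or more copies or belong to a gene that rose.
CTGF: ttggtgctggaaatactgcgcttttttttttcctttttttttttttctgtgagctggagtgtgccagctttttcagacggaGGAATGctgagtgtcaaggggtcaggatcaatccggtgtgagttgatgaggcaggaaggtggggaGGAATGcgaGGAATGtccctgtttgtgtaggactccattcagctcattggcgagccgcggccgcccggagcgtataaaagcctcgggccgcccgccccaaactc
ANKRD1: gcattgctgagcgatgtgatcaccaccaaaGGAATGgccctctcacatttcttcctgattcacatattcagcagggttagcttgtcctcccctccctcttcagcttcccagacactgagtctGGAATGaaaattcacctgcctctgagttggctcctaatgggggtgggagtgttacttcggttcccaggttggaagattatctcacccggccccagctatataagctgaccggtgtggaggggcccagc
AMOTL2: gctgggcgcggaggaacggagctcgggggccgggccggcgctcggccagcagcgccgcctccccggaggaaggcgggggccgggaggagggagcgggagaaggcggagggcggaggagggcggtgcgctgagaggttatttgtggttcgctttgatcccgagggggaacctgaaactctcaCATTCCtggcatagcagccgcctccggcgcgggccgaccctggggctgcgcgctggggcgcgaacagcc
Counted from the start site, the copies of CTGF begin at -169, -104 and -95, those of ANKRD1 at -220 and -128, and that of AMOTL2 at -69. CTGF, with 3 copies, was lower with the HYOU1 shRNA at -0.47, and AMOTL2, with 1 copy, was higher at 0.78. The AP-1 site is TGACTCA or TGAGTCA, and the search took the looser TGANTCA, with any middle base. This looser form occurred once each in the windows of ANKRD1 and LATS1, not overlapping TEAD letters, and in 7.71% of all windows. The copies read TGATTCA in ANKRD1 and TGAATCA in LATS1, so neither has the C or G of the AP-1 site. The CArG box bound by SRF, found in 1.29% of all windows, occurred in 0 of these genes' windows. A match is a description of the sequence and not a measured binding site.

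Across all tested genes with a window, genes were also counted by copies of the TEAD letters. Of 109 genes with 2 or more copies 13 rose and 8 fell (19.3% called), of 1213 genes with 1 copy 70 rose and 75 fell (12%), and of 7772 genes with 0 copies 502 rose and 455 fell (12.3%). The median log2 fold changes were 0.06, 0.02 and 0.04. The shares called were 46.8%, 45.2% and 47.0% for 2 or more, 1 and 0 copies without control replicate 1, and 49.5%, 42.2% and 42.9% after the GC correction. These shares were not tested against each other.

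**Figure D4:**
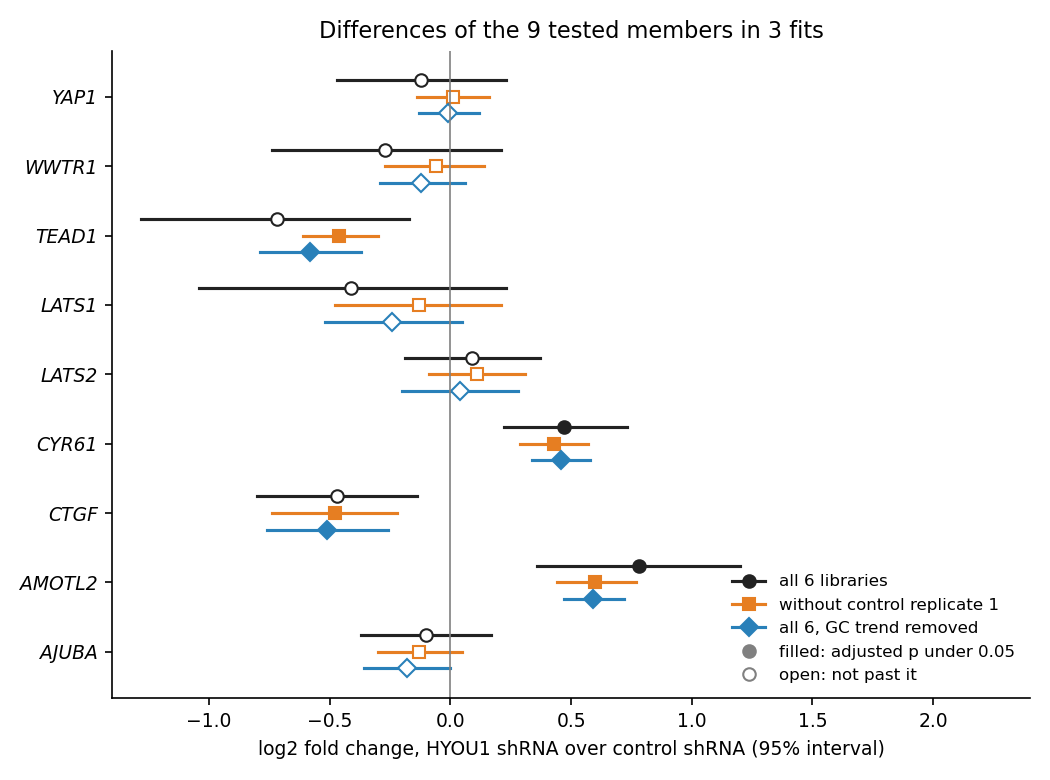
Log2 fold change of HYOU1 shRNA over control shRNA (horizontal axis, log2 scale) with its 95% interval for the 9 tested genes, in the fit of all 6 libraries, the fit without control replicate 1 and the GC-corrected fit. Filled symbols have an adjusted p under 0.05: AMOTL2 and CYR61 are filled in all 3 fits, TEAD1 and CTGF in 2 of them, and the other 5 genes in 0.

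The deviation of control replicate 1 followed GC content among these genes. The 4 genes with the lowest GC content of the longest transcript were LATS1 at 39.7%, WWTR1 at 40.9%, TEAD1 at 41.3% and YAP1 at 43.5%. In control replicate 1 they were higher than the mean of control replicates 2 and 3 by 0.83, 0.62, 0.80 and 0.39 on the log2 scale. AMOTL2, with the highest GC content of the 9 at 56.7%, differed by -0.53. CYR61, CTGF, LATS2 and AJUBA lay between 50.3% and 52.8% and differed by -0.14 to 0.06. With the GC correction or without control replicate 1, 2 of the 9 genes rose and 2 fell in each fit. The shares over all tested genes were 20.4% higher and 20.2% lower after the correction and 24.6% higher and 19.7% lower without the library.

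Both calls among the 10 genes were lost when any library but control replicate 1 was left out. Leaving out HYOU1 shRNA replicate 1, 2 or 3, AMOTL2 had adjusted p = 0.136, 0.140 and 0.160, and CYR61 had adjusted p = 0.160, 0.162 and 0.169 (limma). Leaving out control replicate 2 or 3, AMOTL2 had adjusted p = 0.0770 and 0.0530, and CYR61 had adjusted p = 0.108 and 0.0622. Both stayed higher in each of these fits, and over all genes the number called was 126, 85 and 49 without HYOU1 shRNA replicates 1, 2 and 3 and 357 and 1022 without control replicates 2 and 3, against 1526 with all libraries.

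The rest of the pathway was read from 8 other gene lists, in which 98 further genes were tested and 13 were called, 7 higher and 6 lower (limma, adjusted p under 0.05). This is near the 12.3% called among all tested genes, and is not a result about the pathway. Of the 98 genes, 48 were called without control replicate 1, 32 higher and 16 lower, and 48 with GC corrected, 27 higher and 21 lower. Over all tested genes those fits called 44.3% (24.6% higher, 19.7% lower) and 40.6% (20.4% higher, 20.2% lower), and the list counts below are to be read against these shares. Voom called 11 of the 98 genes higher and 7 lower, and 1770 of all 12448 tested genes. At an unadjusted p under 0.05 there were 37 of the 98 genes with all libraries. The share of all tested genes at that p was not counted, so such counts below are not a result about a list. Leaving out control replicate 2 gave 6 calls, and without HYOU1 shRNA replicates 1, 2 or 3, 0 were called, where 23, 24 and 22 had an unadjusted p under 0.05.

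Other genes of a published signature of YAP and TAZ targets were called in both directions. Of 16 tested genes 1 rose, 3 fell and 12 did not pass, where 6.60% rose and 5.66% fell among all tested genes. The median log2 fold change was -0.20, against 0.04 for all tested genes. AXL, a receptor tyrosine kinase, was at 22.2, 21.3 and 24.1 FPKM in HYOU1 shRNA libraries, against 7.89, 11.2 and 13.0 FPKM in control libraries, and rose by 1.09 (limma, adjusted p = 0.0217). PTPN14, a phosphatase that binds YAP and restrains it, was at 5.58, 5.31 and 4.92 FPKM in HYOU1 shRNA libraries, against 13.2, 10.3 and 10.5 FPKM in control libraries, and fell by 1.08 (adjusted p = 0.00995). CRIM1, a transmembrane protein that binds bone morphogenetic proteins, fell by 0.95 (adjusted p = 0.0117), and DOCK5, an activator of RAC, by 0.95 (adjusted p = 0.0376). Of the 16 genes, 5 rose and 7 fell in the fit without control replicate 1 (24.6% and 19.7% of all tested genes), and 4 and 7 with GC corrected (20.4% and 20.2%).

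Among Hippo kinases and their adaptors, 1 of 21 tested genes rose, 2 fell and 18 did not pass, with a median of -0.05, a share of calls near the 12.3% of all tested genes. FRMD6, a FERM domain protein that acts upstream of the kinases, was at 2.90, 3.01 and 2.58 FPKM in HYOU1 shRNA libraries, against 1.37, 0.879 and 0.669 FPKM in control libraries, and rose by 1.5 (limma, adjusted p = 0.0201). STK38, a kinase related to LATS, was at 11.9, 12.5 and 12.3 FPKM in HYOU1 shRNA libraries, against 28.5, 24.5 and 24.2 FPKM in control libraries, and fell by 1.06 (adjusted p = 0.00611). WWC2, a paralog of the LATS activator KIBRA, fell by 0.90 (adjusted p = 0.0389). Leaving out control replicate 1 gave 5 higher and 4 lower calls, and the GC correction gave 4 and 7, in fits that called 44.3% and 40.6% of all tested genes.

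Of 14 junction and polarity genes 0 rose and 2 fell, where limma called 12.3% of all tested genes. At an unadjusted p under 0.05, 3 of them were higher, and voom called 1 higher. Besides PTPN14, FAT1, a large cadherin upstream of the pathway, was at 3.41, 3.13 and 3.23 FPKM in HYOU1 shRNA libraries, against 12, 8.18 and 8.26 FPKM in control libraries, and fell by 1.49 (limma, adjusted p = 0.00851). Leaving out control replicate 1, or correcting for GC, gave 3 higher and 2 lower calls. Those fits called 44.3% and 40.6% of all tested genes, also to be read beside the STRIPAK and TEAD paralog counts below. The STRIPAK phosphatase complex, which removes phosphate from the Hippo kinases, and the factors of YAP and TAZ turnover had 0 calls among 16 genes by limma and by voom, with 1 higher at an unadjusted p under 0.05. Its most abundant genes, the PP2A subunits PPP2R1A and PPP2CA, had log2 fold changes of 0.24 and -0.11 (adjusted p = 0.344 and 0.750). In this list 3 genes rose and 1 fell without control replicate 1, and 3 and 2 with GC corrected. The TEAD paralogs and VGLL cofactors had 0 calls among 5 tested genes by limma and by voom, and 1 was higher at an unadjusted p under 0.05. Both without control replicate 1 and with GC corrected, 1 rose and 1 fell. The median of this list was 0.17 with all libraries, -0.02 without control replicate 1 and -0.13 with GC corrected.

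Targets of SRF and MRTF, AP-1 subunits and other CCN genes were also counted. Of 18 tested cytoskeletal targets of SRF and its MRTF coactivators 1 rose and 0 fell, and by voom 2 rose and 0 fell. At an unadjusted p under 0.05 there were 7 higher and 1 lower. How many of all tested genes passed that p was not counted. ACTG1, cytoplasmic gamma-actin, rose by 0.73 (limma, adjusted p = 0.0113), and the median of the list was 0.39. Leaving out control replicate 1 gave 10 higher and 0 lower calls, where 24.6% of all tested genes were higher and 19.7% lower. Correcting for GC gave 7 and 2, where 20.4% were higher and 20.2% lower. Of 8 AP-1 subunits, which join TEAD factors at many enhancers, 4 rose and 0 fell by limma and by voom, and at an unadjusted p under 0.05 there were 5 higher and 0 lower. Among all tested genes limma called 12.3%. The 4 that rose were FOSL1 at 1.77, FOSB at 1.11, JUN at 0.62 and ATF3 at 0.62 (adjusted p = 0.00995, 0.0272, 0.0312 and 0.0296). Both without control replicate 1 and with GC corrected, 5 AP-1 genes rose and 1 fell, in fits that called 44.3% and 40.6% of all tested genes. The other 2 tested CCN genes had 0 calls by limma and by voom, with 1 higher at an unadjusted p under 0.05. NOV was at 0.64 and WISP2 at -0.22 on the log2 scale (adjusted p = 0.0851 and 0.542). Leaving out control replicate 1 gave 1 higher and 1 lower call there, in a fit that called 44.3% of all tested genes.

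**Figure D5:**
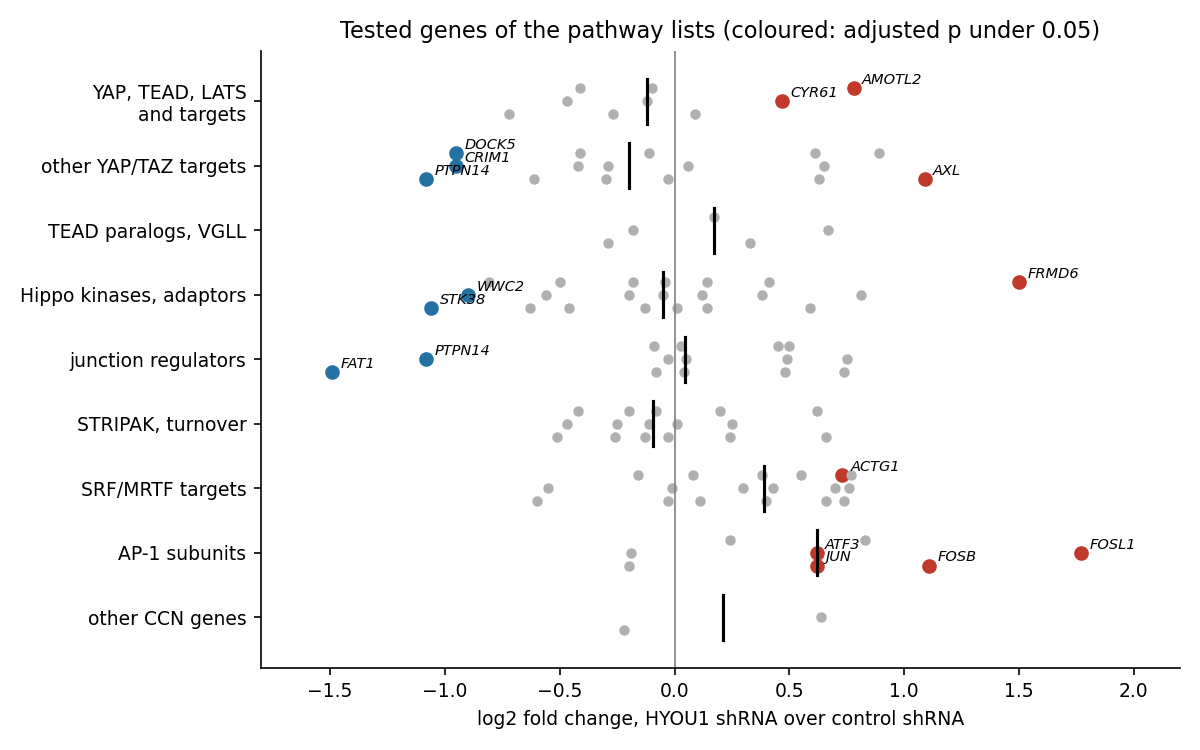
Log2 fold change of HYOU1 shRNA over control shRNA (horizontal axis, log2 scale) for each tested gene of the 9 lists, 1 list a row, with black lines at the list medians. Coloured and named points have an adjusted p under 0.05. The rows of other YAP and TAZ targets and of Hippo kinases hold called genes in both directions, and the row of the 10 genes holds 2 higher. The rows of STRIPAK and turnover genes, of TEAD paralogs and VGLL cofactors and of other CCN genes hold 0.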

How the data were processed

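Per the labels, polyadenylated RNA of 3 HYOU1 shRNA and 3 control shRNA libraries was captured with oligo(dT) beads and primed with random hexamers. The authors deposited FPKM values per gene. Aligner, counter and strand setting were not given in the sources used here, so genes overlapping on opposite strands are uncertain. Among genes opposite the 10 genes, a small RNA (RF00424) in TEAD1 reached 1.90 FPKM in HYOU1 shRNA replicate 2 and 0.681 in control replicate 1, and the rest stayed under 0.4 FPKM. All 58735 gene identifiers and coordinates matched GENCODE 29 (GRCh38). FPKM times gene length came in whole steps (tolerance 0.01), which gave the fragments per library.

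Values were transformed to log2(FPKM + 0.1), which understates changes of low genes. The 12448 genes averaging 1 FPKM or more over the 6 libraries entered limma 3.58.1 (R 4.3.3) with trend and robust priors, and p-values were Benjamini-Hochberg adjusted over all of them. The limma fit of all 6 libraries was tested on simulated counts with the same dispersion for all genes and no deviant library. That test does not cover the GC trend of control replicate 1. The GC correction removed a lowess trend (span 0.3) of each library's deviation from the gene mean on GC content, and also removes any real difference that follows GC content. Named genes were the 10 genes, HYOU1, the TEAD paralogs, and up to 4 called genes with the largest change per list, or the 2 with the highest mean where 0 were called. Members and lists were chosen with earlier results of these data known. Alternatives were other pseudocounts, filters, scalings, gene types and variance settings, voom, a replicate block, the GC correction and leaving out each library.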

Additional observations from a re-analysis of the deposited data

How the results depend on the processing

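The count of called genes over the whole table, 1526 with all libraries, was 938 with a filter of 5 FPKM, 770 without a filter, 5048 after the GC correction and 6049 with that correction and without control replicate 1. Leaving out 1 library gave 49 to 5518. Of the 10 genes, 2 were called with all libraries, 1 with a filter of 0.1 FPKM and 1 with quantile normalization, 0 without a filter (limma, where 4 had an unadjusted p under 0.05), 4 after the GC correction, also without control replicate 1, and 0 to 4 when 1 library was left out. Of the 98 pathway genes, 13 were called with all libraries, 7 without a filter, 48 after the GC correction, 55 with the correction and without control replicate 1, and 0 to 48 when 1 library was left out. HYOU1 fell in every fit. The causes of these moves were not tested.

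Whether replicate numbers pair the libraries was not settled. Deviations from the group means correlated across genes at 0.125, -0.0933 and 0.170 for numbers 1, 2 and 3. Libraries of unlike numbers correlated at -0.214 to 0.160. The control of the same number gave the highest value for HYOU1 shRNA replicates 1 and 3 and the lowest for replicate 2. A fit with replicate number as block called 940 genes, 1 of the 10 genes (AMOTL2) and 9 of the pathway genes. The block together with the GC correction gave 4504, 4 and 43.

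AMOTL2 kept its direction in all 21 alternatives and its call in 15, and CYR61 kept its direction in 21 and its call in 12. TEAD1 and CTGF stayed lower in all 21 and were called in 4 each, namely those with the GC correction or without control replicate 1. YAP1, at -0.12 with all libraries, ranged from -0.19 to 0.0096 when 1 library was left out and was above 0 without control replicate 1, the only change of direction among the 9 tested genes. LATS1 was below the filter of 5 FPKM and has 20 alternatives. With 3 libraries a group, an exact test of a single measure cannot go below 0.1.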
